A study of Mus musculus with 12 samples.

Results

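The genes that encode the kappa light chain and the constant parts of antibodies were read in RNA-seq of inguinal white adipose tissue (iWAT). The set comprised every gene whose symbol starts with Igkv (160 kappa variable genes, 100 of them annotated as V genes and 60 as pseudogenes), the kappa constant gene Igkc, the lambda constant genes Iglc1, Iglc2 and Iglc3, the 8 heavy chain constant genes, and Jchain. That is 173 of the 54134 genes in the table of counts, and 134 of the 173 had at least 1 read in some mouse. AAV-GFP and AAV-Notum groups of 6 mice each were compared, each sequenced as a separate sample. All were male C57BL/6J mice on chow that received the virus at 8 weeks of age and were examined 4 weeks later after a 4 h fast. AAV-GFP mice received an adeno-associated virus encoding green fluorescent protein, and AAV-Notum mice one encoding Notum, a secreted enzyme that inactivates Wnt proteins, both driven by a liver-specific promoter. Adipose tissue was therefore not the site where the transgene was meant to be expressed. Mice are named below by the names of their labels (S_2011 and so on).

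An antibody pairs 2 heavy chains with 2 light chains, and the light chain is either kappa or lambda. A B cell builds its kappa gene by joining a single Igkv gene to a joining segment upstream of Igkc, so the Igkv reads of a tissue reflect which variable genes its B cells carry. Naive B cells make IgM and IgD from the same transcripts by alternative splicing, and class switching replaces Ighm and Ighd with a downstream gene for IgG, IgE or IgA. The J chain links IgM and IgA into polymers and is made mostly by plasma cells, the B lineage cells that secrete antibody.

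Igkv genes are short and alike, which bears on every count of a single gene. The sequences below are the last 300 bases of the coding sequences in GENCODE vM21 (GRCm38), 5′ to 3′. The first pair, Igkv10-96 and Igkv10-94, each led the kappa use of at least 1 mouse, and capitals mark the 16 bases at which they differ, of 347 compared over the whole coding sequence (95.4% identity).
Igkv10-96: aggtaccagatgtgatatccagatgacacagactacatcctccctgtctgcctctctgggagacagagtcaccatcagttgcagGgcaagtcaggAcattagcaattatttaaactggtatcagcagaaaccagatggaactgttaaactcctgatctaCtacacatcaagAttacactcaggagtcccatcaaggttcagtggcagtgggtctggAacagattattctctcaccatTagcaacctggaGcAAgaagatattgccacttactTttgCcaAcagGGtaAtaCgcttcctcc
Igkv10-94: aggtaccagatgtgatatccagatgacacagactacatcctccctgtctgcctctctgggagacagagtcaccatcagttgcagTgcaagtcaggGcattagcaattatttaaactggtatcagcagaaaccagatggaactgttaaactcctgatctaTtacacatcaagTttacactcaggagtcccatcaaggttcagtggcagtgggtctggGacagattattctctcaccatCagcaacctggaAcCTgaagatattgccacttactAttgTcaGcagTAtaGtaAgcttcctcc

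A further 3 Igkv genes led the kappa use of single mice or of a pair of mice. Their capitals mark the 23 germline bases after the codon of the conserved cysteine that precedes the third complementarity-determining region, the loop where the V gene is joined to its J segment.
Igkv1-117: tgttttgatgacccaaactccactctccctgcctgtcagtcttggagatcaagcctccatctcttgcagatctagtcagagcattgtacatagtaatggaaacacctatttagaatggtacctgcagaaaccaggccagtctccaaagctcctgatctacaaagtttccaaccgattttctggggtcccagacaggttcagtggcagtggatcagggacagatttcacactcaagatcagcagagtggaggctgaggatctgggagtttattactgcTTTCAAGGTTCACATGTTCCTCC
Igkv14-111: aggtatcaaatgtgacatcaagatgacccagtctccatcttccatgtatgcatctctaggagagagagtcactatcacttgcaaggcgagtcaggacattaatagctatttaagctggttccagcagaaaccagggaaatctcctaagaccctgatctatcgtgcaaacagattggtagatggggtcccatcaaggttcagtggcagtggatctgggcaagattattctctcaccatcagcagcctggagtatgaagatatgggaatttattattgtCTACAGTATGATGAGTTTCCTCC
Igkv12-46: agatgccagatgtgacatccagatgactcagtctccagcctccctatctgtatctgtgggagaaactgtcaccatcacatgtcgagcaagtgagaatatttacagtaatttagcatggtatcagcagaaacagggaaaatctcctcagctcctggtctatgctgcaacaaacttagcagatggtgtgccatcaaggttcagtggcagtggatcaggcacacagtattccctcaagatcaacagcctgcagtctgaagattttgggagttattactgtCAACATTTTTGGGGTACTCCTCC

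Iglc2 and Iglc3 are shown because their counts could be exchanged most easily among the constant genes. Capitals mark the 11 bases at which they differ, of 314 compared (96.5% identity).
Iglc2: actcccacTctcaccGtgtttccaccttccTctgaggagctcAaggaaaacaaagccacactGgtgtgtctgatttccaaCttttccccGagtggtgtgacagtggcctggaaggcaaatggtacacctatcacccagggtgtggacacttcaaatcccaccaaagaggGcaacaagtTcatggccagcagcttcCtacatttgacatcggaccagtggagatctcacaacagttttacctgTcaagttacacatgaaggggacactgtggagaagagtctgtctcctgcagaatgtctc
Iglc3: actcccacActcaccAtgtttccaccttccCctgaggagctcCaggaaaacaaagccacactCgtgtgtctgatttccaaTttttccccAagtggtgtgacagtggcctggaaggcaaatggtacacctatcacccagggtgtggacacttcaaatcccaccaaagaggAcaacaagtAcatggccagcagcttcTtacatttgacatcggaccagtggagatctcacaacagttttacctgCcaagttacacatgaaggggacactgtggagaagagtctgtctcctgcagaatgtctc

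Of the 50-base windows of a V gene, the length of the reads, a median of 74.4% were found in no other annotated transcript (25.7% to 100% over the 100 Igkv V genes). The share was 67.4% for Igkv10-96, 53.4% for Igkv10-94, 50.1% for Igkv1-117, and 100% for Igkv14-111. It was 100% for Ighm, Ighd, Ighe, Igkc and Iglc1, 92.3% for Iglc2 and 77.7% for Iglc3. Counts of genes with low shares are uncertain, since reads may have been moved between copies or dropped. Iglc1 and Iglc3 lie opposite another annotated gene, 2010309G21Rik, so their reads cannot be told apart where counting did not use strand. Igkc overlaps Gm30211 on its own strand, and Iglc2 overlaps Iglj2 likewise, where strand would not separate them.

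Total counts ran from 14711113 to 21618860 per mouse, and the RNA integrity numbers spanned 5.7 to 7.6 among control and 6.9 to 7.4 among AAV-Notum mice. Lymphoid transcripts were scarce in a pair of control mice, AAV-GFP S_2011 and S_2014, whose RNA integrity numbers were 5.7 (the lowest of the 12) and 6.8. The mean log2 CPM (CPM are the reads of a gene scaled to library size) of 20 T cell genes was -0.10 and -0.71 there, 1.61 in AAV-GFP S_2012, and 3.98 to 6.12 in the other 9 mice. The summed level of 6 lymph node stroma genes was 5.60 and 4.23 CPM in AAV-GFP S_2011 and S_2014 and 40.9 to 156 CPM in the other 10. In bulk tissue, fewer B cells and less antibody RNA per B cell cannot be told apart. The main differences between the groups are therefore also given without AAV-GFP S_2011 and S_2014 (10 mice).

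Antibody transcripts were present in iWAT of every mouse, but the levels of the groups overlapped. Igkc was 3.64 CPM in AAV-GFP S_2011 and 1.67 CPM in AAV-GFP S_2014. In the other AAV-GFP mice it was 98.0, 288, 282 and 526 CPM. In AAV-Notum mice it was 544, 518, 455, 416, 296 and 133 CPM. AAV-Notum S_2042 was the lowest of its group, and the groups overlapped, with 3 of 6 AAV-GFP mice inside the AAV-Notum range and 3 below it. The log2 fold change (AAV-Notum minus AAV-GFP) of Igkc was 0.98 (standard error 0.97, adjusted p = 0.586, edgeR's quasi-likelihood test) with all mice and 0.40 (standard error 0.46, adjusted p = 0.916) without AAV-GFP S_2011 and S_2014. Leaving out 1 mouse at a time, it was 0.72 to 1.55, highest without AAV-GFP S_2022.

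Of the 173 genes, 53 passed the filter on low counts, and none of the 53 differed between the groups at an adjusted p under 0.05 by edgeR (smallest adjusted p = 0.312). Over all 15585 genes tested, 0% were called higher in AAV-Notum mice and 0.0513% lower. At an unadjusted p under 0.05, 3 of the 53 were higher and 0 lower (4.64% of all genes tested were higher and 9.54% lower at that threshold). By DESeq2, 1 member, Ighe, was called higher (of the 16401 genes with a DESeq2 adjusted p, 60 of them members, 0.482% were called higher and 2.18% lower). No tested member had groups without overlap, against 0.398% of all genes higher and 0.693% lower. Of the 53 log2 fold changes, 51 were above 0 (51.2% of all genes tested were above 0 and 48.8% below), with a median of 0.91 beside 0.01 over all genes. With a score of 20 T cell genes as covariate, 25 were above 0 and 28 below (median -0.019), and Igkc was -0.17. The score is itself low in AAV-GFP S_2011 and S_2014. The members are not independent of each other, as they are transcribed largely in the same cells. Without AAV-GFP S_2011 and S_2014, 65 members passed the filter, 54 log2 fold changes were above 0 and 11 below, the median was 0.37, and the adjusted p was over 0.05 for each of them (over all genes of that fit, 0% were called higher and 0.00625% lower).

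**Figure D1:**
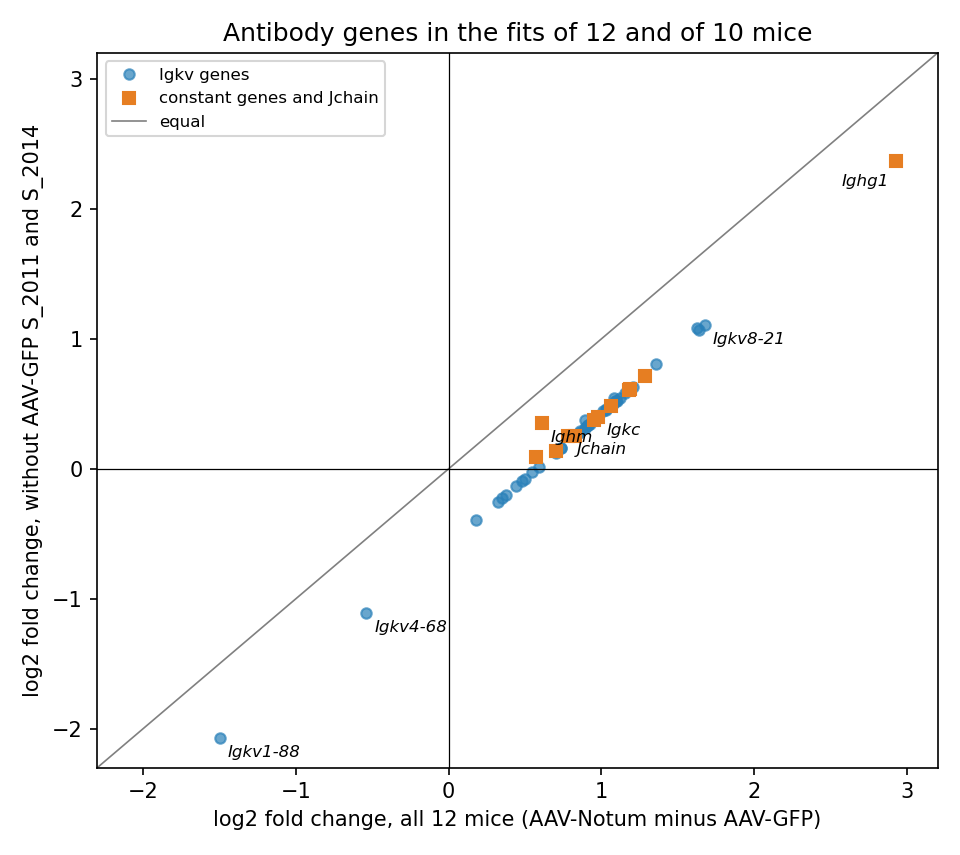
Log2 fold change (AAV-Notum minus AAV-GFP) of the 41 Igkv genes and 12 constant genes or Jchain that passed the filter, from all 12 mice (horizontal axis) against the fit without AAV-GFP S_2011 and S_2014 (vertical axis). All 53 points lie below the line of equal values, and Igkv1-88 and Igkv4-68 are the points below 0 on both axes.

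Among the heavy chain genes, Ighm, which encodes the constant part of IgM, did not follow the light chain. It was 273 and 361 CPM (4875 and 6049 reads) in AAV-GFP S_2011 and S_2014, beside 267, 608, 729.5 and 896 CPM in the other AAV-GFP mice and 957, 1044, 928, 876, 637 and 343 CPM in AAV-Notum mice. The mice almost without Igkc thus had Ighm levels within the range of the other control mice. In those mice, 75.0 and 216 Ighm reads were counted per Igkc read, against 1.70 to 2.72 in the other 10. Ighd, which encodes IgD and shares its primary transcript with Ighm in naive B cells, was 2.80 and 1.85 CPM there, so 97.5 and 195 Ighm reads were counted per Ighd read, against 1.58 to 2.41 in the other 10. No annotated gene overlaps Ighm (chr12:113418558-113422730, GRCm38), and the source of the Ighm reads in these samples was not tested. The log2 fold change of Ighm was 0.61 with all mice (standard error 0.35, adjusted p = 0.422, edgeR) and 0.35 in the 10 mice (adjusted p = 0.909). Neither passed the test. Ighd was 118 to 411 CPM in the other 4 AAV-GFP mice and 142 to 658 CPM in AAV-Notum mice. The fitted difference was 0.95 on the log2 scale (standard error 0.97, adjusted p = 0.596, edgeR) and 0.37 without AAV-GFP S_2011 and S_2014.

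**Figure D2:**
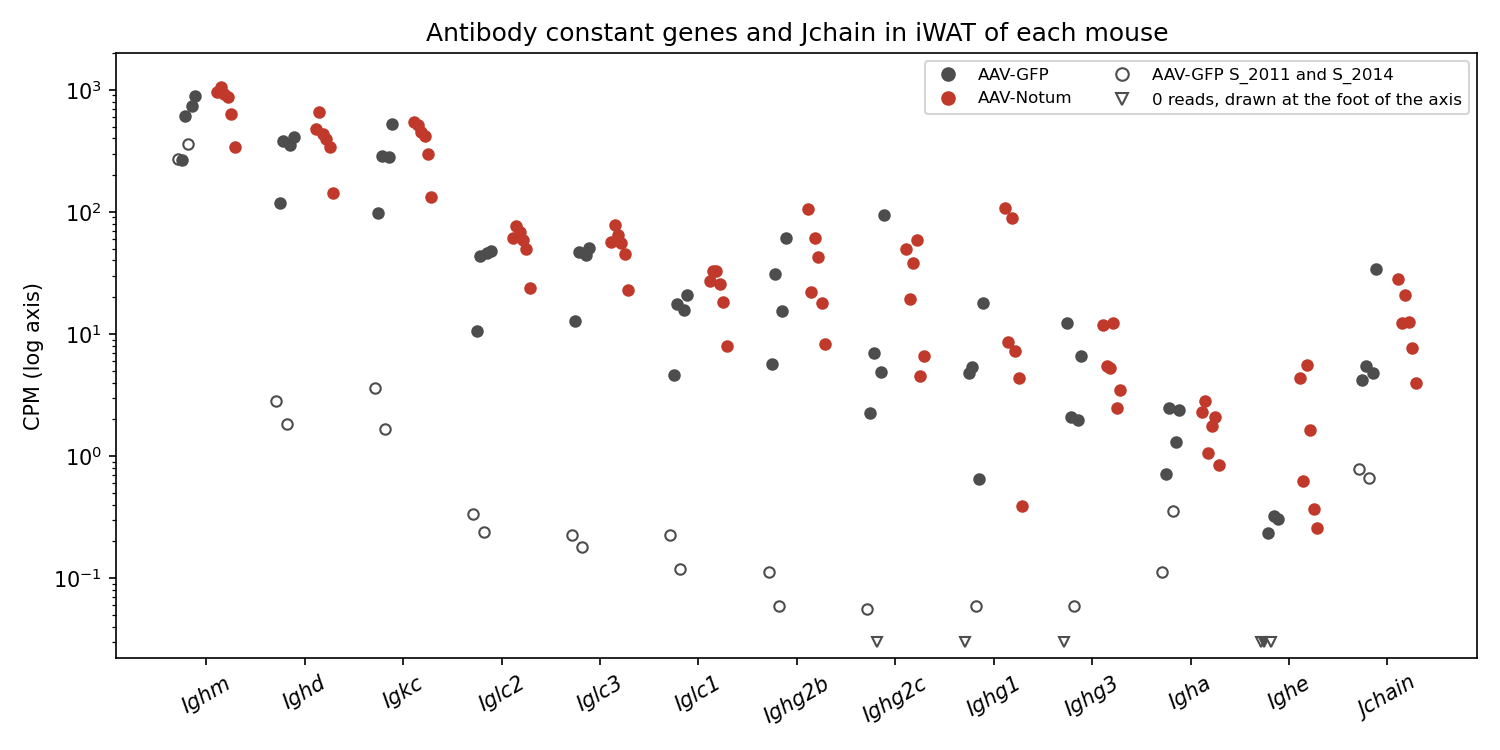
CPM (log axis) of the 12 constant genes and Jchain in each mouse, AAV-GFP in grey and AAV-Notum in red. Open symbols are AAV-GFP S_2011 and S_2014, in which Ighm lies near the other control mice while Ighd, Igkc and the lambda genes lie far below all other mice.

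The class make-up asks whether the antibody made differed, apart from its amount. It was taken as the share of each gene among the reads of all 8 heavy chain constant genes, which are shares of reads and not of molecules. IgM and IgD reads made up most of it in all mice. The Ighm share was 58.8% to 66.0% in the 4 AAV-GFP mice with lymphoid transcripts and 55.9% to 67.9% in AAV-Notum mice. In AAV-GFP S_2011 and S_2014 it was 98.9% and 99.3% (95% exact binomial intervals 98.6% to 99.2% and 99.1% to 99.5%). The group means were 74.7% ± 19.1 (SD, n = 6) for AAV-GFP and 61.4% ± 4.1 (SD, n = 6) for AAV-Notum. They did not differ past the test (exact permutation, two-sided p = 0.154). Without AAV-GFP S_2011 and S_2014 the AAV-GFP mean was 62.5% ± 3.5 (SD, n = 4). The Ighd share was 27.6% to 36.5% in those 4 mice and 27.7% to 37.4% in AAV-Notum mice, and was 1.01% and 0.51% in AAV-GFP S_2011 and S_2014.

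**Figure D3:**
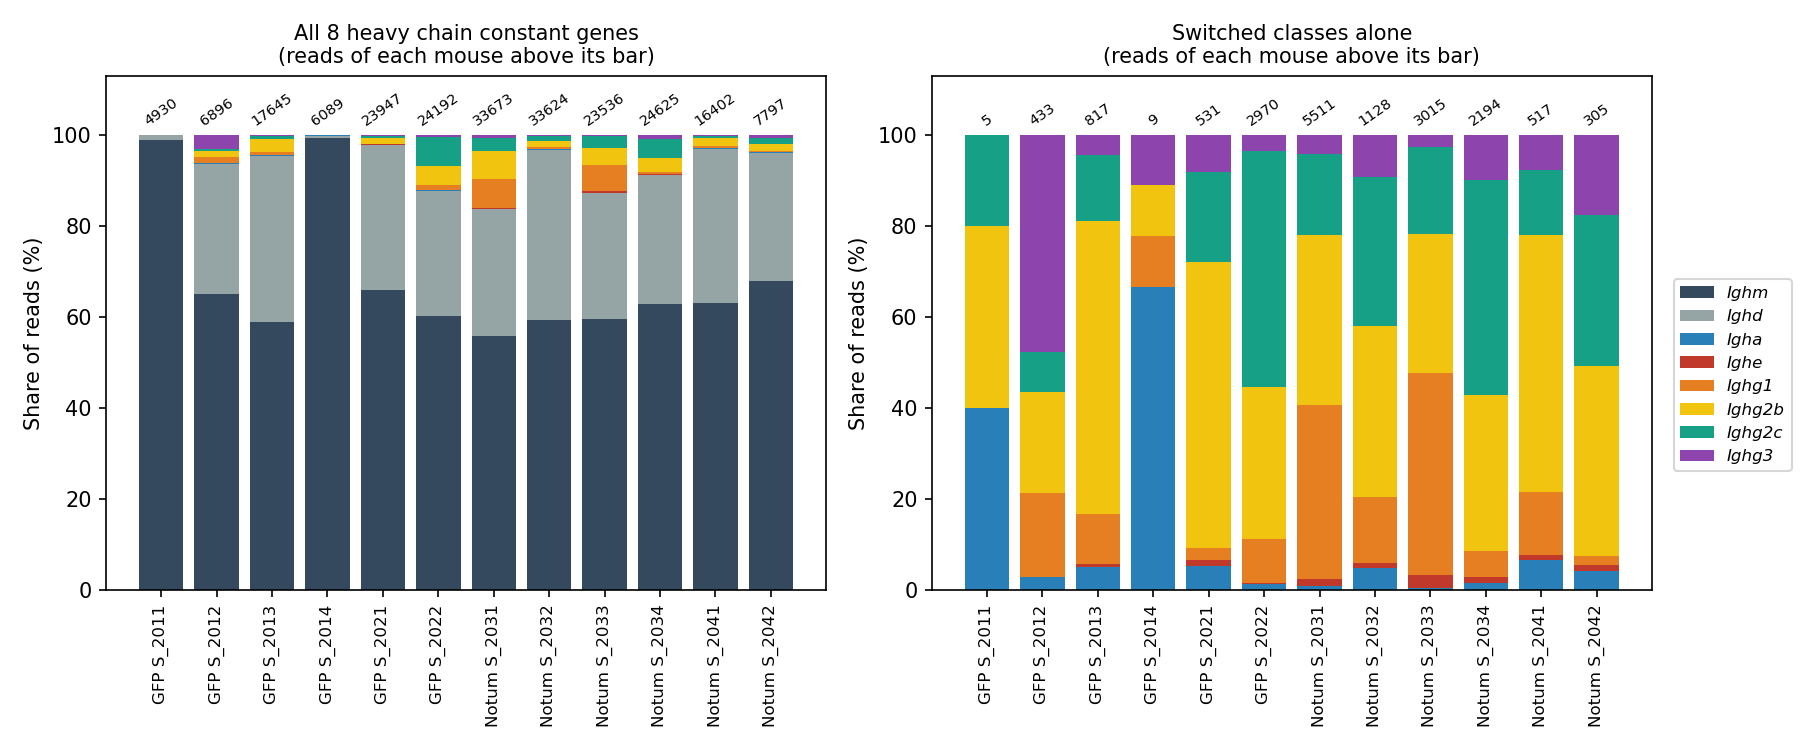
Share of reads (%) of each heavy chain constant gene in each mouse, among all 8 genes (left) and among the 6 switched classes (right), with the reads of each mouse printed above its bar. Ighm fills nearly the whole bar in AAV-GFP S_2011 and S_2014, and the switched classes rest on 5 and 9 reads there.

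The switched classes, IgG, IgE and IgA, were a small part of the reads and differed widely from mouse to mouse. Summed over their 6 genes they reached 19.7 to 280 CPM in the 10 mice with lymphoid transcripts, and the lowest of the 12 mice had 0.28 CPM. Ighg2b, which encodes IgG2b and was the largest switched class on average in both groups, had 45.7% ± 21.2 (SD, n = 4) of the switched reads in the AAV-GFP mice with lymphoid transcripts and 39.7% ± 9.0 (SD, n = 6) in AAV-Notum mice. Its share of switched reads was 22.2% to 64.3% in the 4 AAV-GFP mice and 30.6% to 56.5% in AAV-Notum mice. Another class exceeded it in 5 of the 10 mice. Ighg3, which encodes IgG3, took 47.8% of the switched reads of AAV-GFP S_2012 (207 reads) and 2.62% to 17.7% in the other 9 mice with lymphoid transcripts. Ighg2c, which encodes IgG2c, took 51.9% in AAV-GFP S_2022 (1540 reads) and 47.1% in AAV-Notum S_2034 (1034 reads), and at most 33.1% in the other 8. Ighg1 took 38.3% in AAV-Notum S_2031 and 44.3% in S_2033, where Ighg2b had 37.4% and 30.6%, and 1.97% to 18.5% in the other 8. The log2 fold changes of Ighg2b, Ighg2c, Ighg3 and Igha were 1.19, 0.70, 0.83 and 0.57, beside standard errors of 1.07, 1.26, 0.94 and 0.57, with adjusted p of 0.556 to 0.768 by edgeR. In the 10 mice they were 0.61, 0.13, 0.25 and 0.087 (adjusted p of 0.917 to 0.990). Single mice weighed heavily on them, and leaving out 1 mouse at a time gave 0.39 to 3.37 for Ighg2c and 0.70 to 2.04 for Ighg2b, both highest without AAV-GFP S_2022, 0.57 to 1.67 for Ighg3, highest without AAV-GFP S_2012, and 0.33 to 0.89 for Igha, lowest without AAV-GFP S_2011 and highest without AAV-GFP S_2013.

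Ighg1, the constant gene of IgG1, stood out in a pair of AAV-Notum mice. It was 107 CPM (2110 reads) in AAV-Notum S_2031 and 88.6 CPM (1337 reads) in AAV-Notum S_2033. The other AAV-Notum mice had 8.59, 7.30, 4.37 and 0.39 CPM. AAV-GFP mice had 0, 4.76, 5.32, 0.06, 0.65 and 17.8 CPM. The groups overlapped, since 4 of 6 AAV-Notum mice lay below the highest AAV-GFP mouse. On the log2 scale the fitted difference was 2.93 (standard error 1.36, adjusted p = 0.356, edgeR) and 2.37 (adjusted p = 0.768) without AAV-GFP S_2011 and S_2014. Leaving out 1 mouse at a time, it was 2.20 to 4.07. As a share of heavy chain reads Ighg1 was 6.27% and 5.68% in AAV-Notum S_2031 and S_2033 and 0.08% to 0.52% in the other 4, against 0% to 1.19% in AAV-GFP mice (exact permutation p = 0.303). The difference in Ighg1 share was 1.75 percentage points, and 0.95 and 1.07 without AAV-Notum S_2031 and without S_2033. Leaving out any 1 mouse gave 0.95 to 2.19. The other AAV-Notum mice had shares of 0.488%, 0.524%, 0.433% and 0.077%, beside an AAV-GFP mean of 0.491%.

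Ighe, the constant gene of IgE, was the only one of 13 measures of make-up and variable gene use whose difference passed the adjustment over the 13. It had 85, 12, 84, 29, 6 and 4 reads in AAV-Notum mice and 0, 0, 4, 0, 7 and 5 reads in AAV-GFP mice. Its share of heavy chain reads was 0.142% ± 0.134 (SD, n = 6) for AAV-Notum against 0.0121% ± 0.0135 (SD, n = 6) for AAV-GFP. The shares did not overlap, with 0.0357% as the lowest AAV-Notum and 0.0292% as the highest AAV-GFP value (exact permutation, two-sided p = 0.00216, which is the lowest that groups of 6 can reach, adjusted p = 0.0281). The highest shares were again those of AAV-Notum S_2033 (0.357%) and S_2031 (0.252%). The depth did not resolve this separation. A count of 0 among the 4930, 6896 and 6089 heavy chain reads of AAV-GFP S_2011, S_2012 and S_2014 allows a share of up to 0.0609%, 0.0435% and 0.0493%, all above the lowest AAV-Notum share, by the limit of 3 counts (the upper ends of the two-sided 95% intervals are 0.0748%, 0.0535% and 0.0606%), and in AAV-GFP S_2011 and S_2014 most of those reads were Ighm. Without AAV-GFP S_2011 and S_2014 the exact permutation p was 0.0905 (adjusted p = 0.939), with means of 0.142% and 0.0181%. With 4 against 6 mice a measure that stands alone cannot reach an adjusted p below 0.0619 over the 13. Such a measure could not be called there. The unadjusted exact permutation p of 0.0905 was itself above 0.00476, the lowest that 4 against 6 mice can reach. Leaving out any 1 of the AAV-GFP mice also ended the call, with adjusted p up to 0.506. Ighe had too few reads to enter the edgeR fit of all mice, and in that of the 10 mice its log2 difference was 3.24 (standard error 1.04, adjusted p = 0.542). DESeq2 gave a log2 difference of 3.89 (standard error 0.96, adjusted p = 0.0077), and edgeR with no filter beyond 1 count gave 3.81 (standard error 0.95, adjusted p = 0.251).

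**Figure D4:**
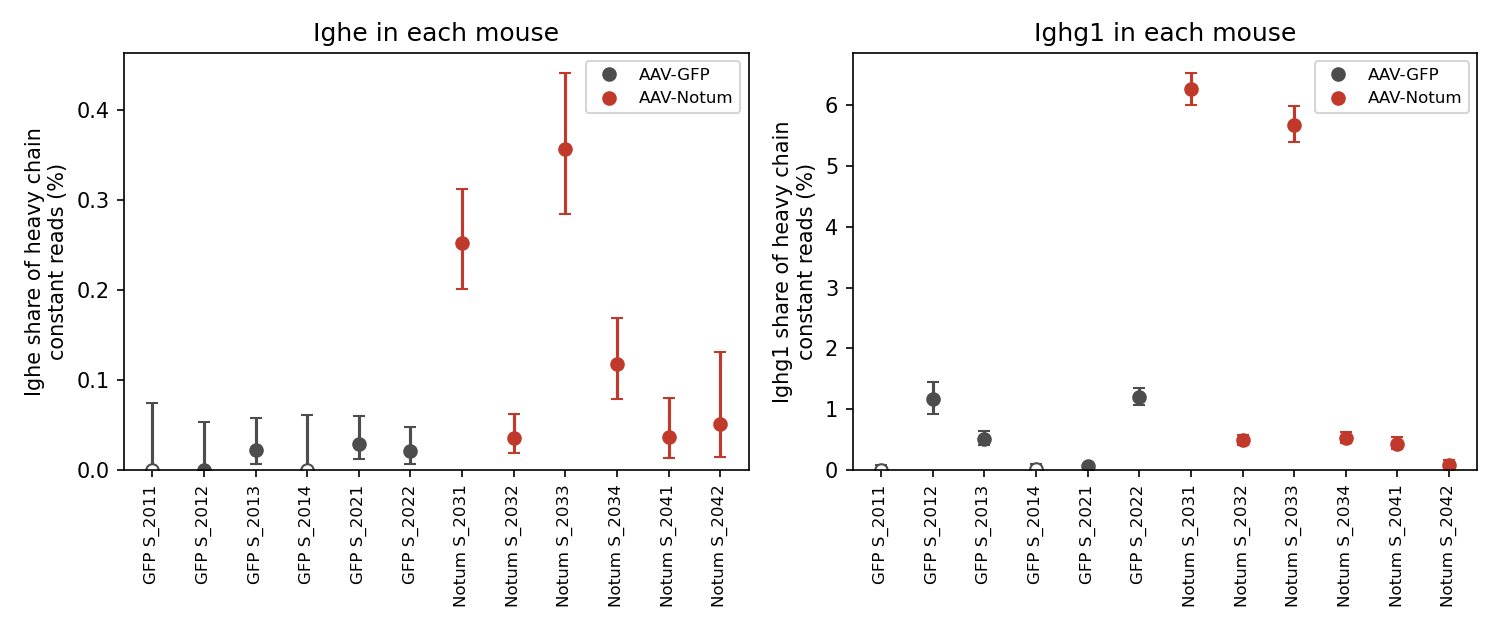
Share of Ighe (left) and Ighg1 (right) among heavy chain constant reads (%) in each mouse, with 95% exact binomial intervals, which cover counting error only. AAV-Notum S_2031 and S_2033 hold the highest shares of both genes, and the Ighe intervals of the other mice overlap those of the AAV-GFP mice except for AAV-Notum S_2034.

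Light chains were mostly kappa. The 3 lambda genes took 20.95% to 29.1% of light chain constant reads in AAV-Notum mice and 17.7% to 27.4% in AAV-GFP mice. The lowest value rests on 14 of 79 reads in AAV-GFP S_2011 (95% exact binomial interval 10.04% to 27.9%), and AAV-GFP S_2014 had 9 of 37. The means were 26.0% ± 2.8 (SD, n = 6) for AAV-Notum and 22.9% ± 4.2 (SD, n = 6) for AAV-GFP. They did not differ past the test (exact permutation p = 0.154, adjusted p = 0.535). The difference was 3.15 percentage points with all mice and 2.23 in the 10 mice (adjusted p = 0.939). Among the lambda reads of the 10 mice with lymphoid transcripts, Iglc2 took 37.7% to 44.0%, Iglc3 39.1% to 45.6% and Iglc1 14.7% to 19.9%. Iglc1 was 4.65 to 21.0 CPM in those 4 AAV-GFP mice and 8.03 to 33.0 CPM in AAV-Notum mice. The fitted difference was 1.29 on the log2 scale (standard error 0.85, adjusted p = 0.468, edgeR). The log2 fold changes of Iglc2 and Iglc3 were 1.18 and 1.06, neither past the test. In the 10 mice the log2 fold changes of Iglc1, Iglc2 and Iglc3 were 0.71, 0.60 and 0.48 (adjusted p of 0.802 to 0.875).

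Jchain, which links antibody polymers, was low in the same mice as the light chains. It was 0.78 and 0.66 CPM in AAV-GFP S_2011 and S_2014, 4.17, 5.50, 4.80 and 33.9 CPM in the other AAV-GFP mice, and 28.3, 12.3, 20.7, 12.6, 7.69 and 3.95 CPM in AAV-Notum mice. The fitted log2 difference was 0.78 (standard error 0.83, adjusted p = 0.610, edgeR), and 0.25 in the 10 mice (adjusted p = 0.957). Leaving out 1 mouse at a time gave 0.47 to 2.16 for Jchain, the highest without AAV-GFP S_2022. Per 100 heavy chain constant reads there were 0.18 to 2.28 Jchain reads among AAV-GFP and 0.70 to 1.65 among AAV-Notum mice. The mean of the log2 ratio was -0.86 ± 1.31 (SD, n = 6) for AAV-GFP and -0.046 ± 0.50 (SD, n = 6) for AAV-Notum (exact permutation p = 0.188). The J chain ratio differed by 0.82 on this scale with all mice and by 0.18 in the 10 mice. With all mice the direction turned with the denominator, since against heavy chain reads without Ighm it differed by -1.04. Those reads numbered only 55 and 40 in AAV-GFP S_2011 and S_2014. Per 100 of them there were 25.5 and 27.5 Jchain reads in these mice. The other AAV-GFP mice had 1.28 to 5.71 and AAV-Notum mice 1.72 to 3.75. The difference with this denominator was not tested in the 10 mice. Per 100 Igkc reads there were 21.5 and 39.3 in AAV-GFP S_2011 and S_2014 against 1.70 to 6.45 in the other mice. The highest ratios to all heavy chain reads were those of AAV-GFP S_2022 (2.28) and AAV-Notum S_2031 (1.65) and S_2033 (1.33).

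Variable gene use was compared in the 10 mice with at least 300 Igkv reads. AAV-GFP S_2011 and S_2014 had 16 and 7 Igkv reads and the others 460 to 2607. The Igkv genes lie on chr6:67555497-70704177 (GRCm38), 75 of them on the strand of Igkc and 85 on the opposite strand. Of the 100 V genes, 98 had at least 1 read and 63 had reads in all 10 mice, while the 60 pseudogenes together had 133 of 16067 Igkv reads. Between 73 and 101 Igkv genes were seen per mouse. Thinned to the 460 reads of the shallowest mouse, 76.0 ± 2.2 Igkv genes (SD, n = 4) were left for AAV-GFP and 75.8 ± 2.0 (SD, n = 6) for AAV-Notum (exact permutation p = 0.867). The inverse Simpson number, the number of equally used genes that would give the same concentration, was 35.8 ± 6.0 (SD, n = 4) and 36.7 ± 4.3 (SD, n = 6) (exact permutation p = 0.776). A comparison of 4 mice against 6 cannot give a p below 0.00476. The ranking of the 100 V genes was alike throughout, and Spearman's rho between mice had a median of 0.884 over 24 pairs between groups, 0.887 over 6 pairs within AAV-GFP and 0.886 over 15 pairs within AAV-Notum mice, a description across genes with no test.

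Igkv10-96 (chr6:68631963-68632442), printed above, was the most used gene, with 6.71% of Igkv reads on average. Its share was 5.56% to 8.10% among AAV-GFP and 5.48% to 8.26% among AAV-Notum mice, and it led in 5 of 10 mice. Igkv6-15 averaged 4.66% and Igkv19-93 4.34%, and Igkv19-93 was the steadiest of the leading genes, at 3.79% to 4.95%. Igkv1-135, Igkv1-110 and Igkv12-44 averaged 3.21%, 3.09% and 2.42%. By subgroup, Igkv1 genes took 13.1%, Igkv6 genes 13.0%, Igkv4 genes 12.0% and Igkv10 genes 9.59% of the reads. V genes on the strand of Igkc took 33.9% to 46.6% of the reads per mouse, and the genes beyond the midpoint of the locus, farther from Igkc, took 45.1% to 54.1%.

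In several mice 1 kappa gene stood far above its share elsewhere. The leading gene took 8.61% ± 2.85 (SD, n = 4) of Igkv reads for AAV-GFP and 7.88% ± 1.41 (SD, n = 6) for AAV-Notum (exact permutation p = 0.638). It was Igkv1-117 in AAV-GFP S_2012, with 12.9% (73 of 568 reads, 95% exact binomial interval 10.2% to 15.9%) against 2.37% to 4.35% in the other 9 mice. Igkv14-111 led in AAV-Notum S_2034 with 10.2% and in AAV-GFP S_2013 with 7.25%, against 1.94% to 5.35% elsewhere. Igkv10-94 led in AAV-Notum S_2031 with 7.77%, above its near copy Igkv10-96 at 5.48%. In the other 9 mice Igkv10-94 had 0.94% to 4.71%. Igkv12-46 led in AAV-GFP S_2022 with 7.67%, followed by Igkv1-88 with 7.36% (168 reads) against 0.51% to 1.19% elsewhere. Over all Igkv genes, 7 had a share in 1 mouse above 3 times the median of the other 9 with at least 20 reads, a threshold chosen after the values were seen. They were Igkv4-61 in AAV-Notum S_2034 (2.53%), Igkv1-88 and Igkv4-68 in AAV-GFP S_2022 (7.36% and 2.45%), Igkv4-91 in AAV-Notum S_2042 (6.52%), Igkv8-24 in AAV-Notum S_2033 (7.79%), Igkv10-94 in AAV-Notum S_2031 and Igkv1-117 in AAV-GFP S_2012. Such genes were thus found in both groups, 3 in AAV-GFP and 4 in AAV-Notum mice. The mice with the highest Ighg1 and Ighe shares, AAV-Notum S_2031 and S_2033, were raised for different kappa genes.

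**Figure D5:**
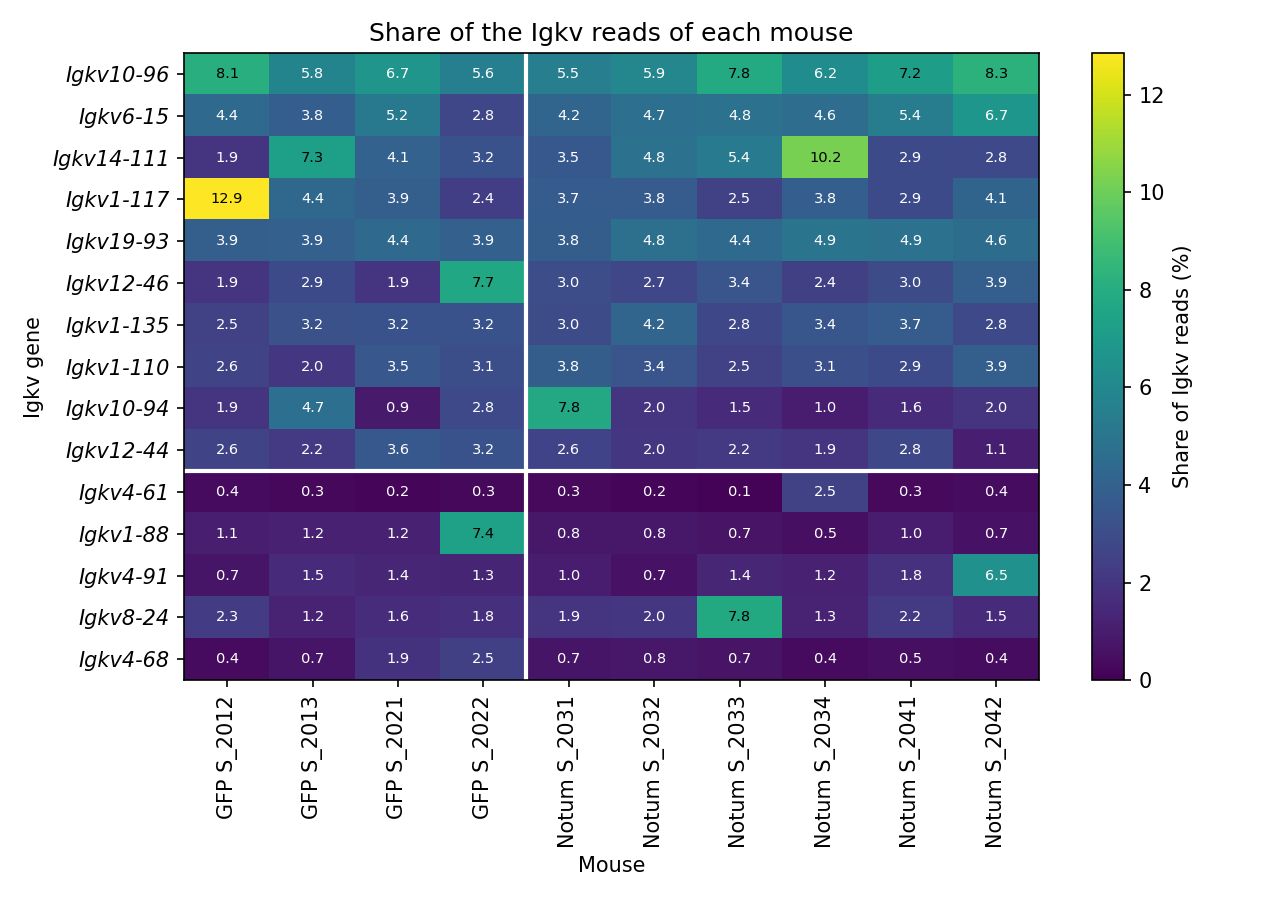
Share of Igkv reads (%) in the 10 mice with at least 300 Igkv reads (columns, AAV-GFP left of the white line) of the 10 most used genes (upper rows) and 5 further genes raised in a single mouse (lower rows). Igkv10-96 is high in every column, while Igkv1-117 in AAV-GFP S_2012 (12.9%) and Igkv14-111 in AAV-Notum S_2034 (10.2%) are the highest single values.

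The 41 Igkv genes that passed the filter had log2 fold changes from -1.50 to 1.67. The smallest p values belonged to Igkv8-27 (1.62, standard error 0.67), Igkv8-21 (1.67, standard error 0.72) and Igkv14-100 (1.36, standard error 0.62), with adjusted p of 0.312, 0.325 and 0.350 by edgeR. They were 1.08, 1.10 and 0.81 in the 10 mice (adjusted p of 0.686 to 0.708). Igkv8-27 took 0.70% to 0.94% of Igkv reads in the 4 AAV-GFP mice and 0.96% to 2.70% in AAV-Notum mice. Igkv8-21 took 0.53% to 1.09% and 1.00% to 2.20%. Only Igkv1-88 and Igkv4-68 were lower in AAV-Notum mice (-1.50 and -0.54, adjusted p of 0.490 and 0.760, and -2.07 and -1.11 in the 10 mice), and both values rest on AAV-GFP S_2022: without that mouse they were 0.71 and 0.53. The mean share over all 12 mice would place Igkv15-103, Igkv14-126, Igkv2-109 and Igkv3-2 among the 10 most used genes through the few reads of AAV-GFP S_2011 and S_2014, of which Igkv14-126 had 6 of 16 in AAV-GFP S_2011. Over the 10 other mice they averaged 1.99%, 0.68%, 0.99% and 1.90%.

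Genes of B cells outside the set were compared as well. Of 16 B cell genes tested, 15 had log2 fold changes above 0 (median 0.97), and none passed the test. Ebf1, which preadipocytes also use, was the exception. Their summed level was 313 and 302 CPM in AAV-GFP S_2011 and S_2014 and 743 to 2838 CPM in the other 10 mice. Cd22, an inhibitory coreceptor of the B cell receptor, had a log2 fold change of 0.99 (adjusted p = 0.586, edgeR), Fcer2a, the low-affinity IgE receptor of B cells, 1.02 (adjusted p = 0.571), and Fcmr, the IgM receptor, 0.99 (adjusted p = 0.607). Of 8 germinal center genes, 8 were above 0 (median 0.67) and none passed the test. Bcl6, the germinal center regulator, had 0.62 (adjusted p = 0.413). Of 5 lymph node stroma genes tested, 5 were above 0 (median 0.71), among them Glycam1, a ligand made by lymph node venules, with 1.31 (adjusted p = 0.512), and of 20 T cell genes 20 were above 0 (median 0.98). In the 10 mice, 15 of 16 B cell genes (median 0.39), 7 of 8 germinal center genes (median 0.24), 3 of 5 lymph node stroma genes (median 0.20) and 20 of 20 T cell genes (median 0.41) were above 0, none past the test. The log2 fold changes there were 0.41 for Cd22, 0.44 for Fcer2a, 0.41 for Fcmr, 0.28 for Bcl6 and 0.73 for Glycam1. The part of these cells in the antibody differences was not tested.

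Plasma cell genes did not move as a group. Of 18 tested, 12 had log2 fold changes above 0 and 6 below (median 0.05), and none passed the test. Many of them are used by other cells. Xbp1, a regulator of secretion that adipose tissue also expresses, was 201 to 472 CPM in all mice (log2 fold change -0.17, adjusted p = 0.696, edgeR, and -0.096 in the 10 mice). Tnfrsf17, a defining marker of plasma cells, stayed between 0.12 and 0.82 CPM in all 12 mice, and Mzb1, named after its values were seen, was 0.28 and 0.12 CPM in AAV-GFP S_2011 and S_2014 and 4.05 to 24.4 CPM in the others. Of the variable and joining genes outside the set, 26 of 27 Ighv, 3 of 3 Iglv, 4 of 4 Ighj and 5 of 5 Igkj genes were above 0 and none passed the test. In the 10 mice, 12 of 18 plasma cell genes (median 0.078), 28 of 36 Ighv, 3 of 3 Iglv, 4 of 4 Ighj and 5 of 5 Igkj genes were above 0. Of 11 genes of B cell homing and survival signals tested, 8 were above 0 (median 0.48), and of 10 genes of antibody receptors and transport 7 were (median 0.14), again with none past the test. These were 8 of 11 (median 0.23) in the 10 mice and 6 of 11 (median 0.078). Of 5 immature B cell genes 1 was tested and was above 0 (0.86, adjusted p = 0.569). The marker lists of other tissues differed between mice as well: 8 hepatocyte genes were all below 0 (median -2.79, summed level 45.6 to 5382 CPM among AAV-GFP and 20.1 to 776 CPM among AAV-Notum mice), 6 skeletal muscle genes all above 0 (median 1.39, summed level 7.51 to 746 CPM among AAV-GFP and 6.68 to 3464 CPM among AAV-Notum mice, where the highest was S_2042 and the median 29.1 CPM lay below the 108.7 CPM of AAV-GFP mice), 7 of 8 adipocyte genes below 0 (median -0.25) and 4 of 8 macrophage genes above 0, and none passed edgeR's test. DESeq2 called 1 gene of these lists, the macrophage scavenger receptor Cd163, named after its values were seen, which was lower in AAV-Notum mice with no overlap between the groups (46.9 to 81.9 CPM against 27.2 to 46.1 CPM, log2 difference -0.94, adjusted p = 2.48e-05 by DESeq2 and 0.0696 by edgeR). Over all genes with a DESeq2 adjusted p, 2.18% were called lower, and 0.693% of the genes tested by edgeR were lower without overlap. The median of the 8 macrophage genes was 0.016. In the 10 mice the medians of the hepatocyte, skeletal muscle, adipocyte and macrophage genes were -3.02, 1.48, -0.089 and -0.071. The defining adipocyte genes were at 19901 to 46627 CPM in sum.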

How the data were processed

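RNA-seq of iWAT was deposited for 12 mice, 6 AAV-GFP and 6 AAV-Notum, grouped by their titles. For these, the authors made TruSeq libraries, sequenced 50-base single-end reads, checked them with FastQC and mapped them to mm10 with STAR 2.3.1, per the submitters' processing notes and the study's methods. Counts, as deposited by the authors, are reads per gene without normalization. The second table holds log2 values deposited by the authors, the log2 of normalized reads plus 1, and undoing this gave whole reads (tolerance 0.1) for 100% of the values, which served as an alternative. The counting program, its use of strand and the gene annotation are not given in the sources used here.

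Counts of all genes were fitted with edgeR 4.0.16 in R 4.3.3 (TMM, filterByExpr with minimum count 10 and total 15, quasi-likelihood test, two-sided, Benjamini-Hochberg adjustment over 15585 genes, threshold 0.05). CPM use the TMM-scaled library size. A prior count of 2 was added for log2 CPM. Fits were tested on simulated counts. Shares have 95% exact binomial intervals. Shares, ratios and variable gene use were compared by two-sided exact permutation over mice (the share of the 924 assignments of 6 against 6, or 210 of 4 against 6, with an absolute difference in means at least as large), adjusted over 13 measures. Mice with under 300 Igkv reads were left out of variable gene use. Intervals and limits (3 counts) cover counting error only.

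The genes named are the constant genes and Jchain, the 10 Igkv genes of highest mean share, the 3 of smallest p in each direction (2 had lower values), and up to 4 genes per marker list. That rule gave the mean over 12 mice. The ranking shown uses the 10 mice with enough reads, because AAV-GFP S_2011 and S_2014 had 16 and 7. Fcer2a, Tnfrsf17, Mzb1 and the Igkv genes raised in single mice were added after their values were seen. The members and lists were chosen with earlier results of these data known. Alternatives were DESeq2 1.42.0, RLE size factors, a filter of 1 count, the RNA integrity number or a T cell score as covariate, leaving out AAV-GFP S_2011 and S_2014 or each mouse, the recovered reads, other denominators, thinning to 230 reads, and leaving out pseudogenes. Heavy chain reads without Ighm as a denominator was chosen after seeing the data. Some marker genes of the lists are not reported by name here. Positions and sequences are from GENCODE vM21 (GRCm38).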

Additional observations from a re-analysis of the deposited data

Results flagged for a closer look

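Within a group, 1 mouse stood far from the others in 9 of the 108 sets of values examined. Chance flags about 1 in 20, which is 5.4 of 108. The sets share the same mice and are not independent, so this comparison is not a test. Igkv4-61 and other Igkv genes raised in single mice were included after their values were seen. In AAV-Notum mice, mouse S_2042 was the lowest for Iglc2 (4.57 log2 CPM, others 5.64 to 6.26), Igkv2-109 (-2.04, others -0.04 to 0.80), Igkv3-2 (-2.04, others 0.90 to 1.63), Igkv12-44 (-1.19, others 1.03 to 1.77) and Glycam1 (4.03, others 5.50 to 6.04), which are 5 of the 9. AAV-Notum S_2034 was the highest for Igkv4-61 (1.41 log2 CPM, others -2.04 to -0.94). Among AAV-GFP mice, S_2022 had the highest Ighg2c share (6.37%, others 0% to 0.67%) and S_2012 the highest Ighg3 share (3.0%, others 0% to 0.44%) and leading Igkv share (12.9%, others 6.68% to 7.67%).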

How the results depend on the processing

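No paired analysis was possible because the mouse numbers of the labels are not shared between the groups. Of 38 genes compared under the alternatives, 27 of 722 log2 fold changes turned sign and no adjusted p passed the threshold. With a T cell score as covariate, itself low in AAV-GFP S_2011 and S_2014, they were -0.12 for Jchain, -0.17 for Igkc, -0.14 for Ighg2c, -0.22 for Igha, -0.25 for Ighd, -0.042 for Igkv10-96, -0.019 for Igkv19-93, -0.34 for Igkv15-103, -0.45 for Igkv1-117, -0.61 for Igkv12-46, -0.11 for Igkv1-135, -0.035 for Igkv1-110, -0.28 for Igkv10-94, -0.66 for Igkv12-44, -0.23 for Cd22, -0.19 for Fcmr and -0.16 for Fcer2a, and 0.21 for Xbp1. Without AAV-GFP S_2011 and S_2014 they were -0.080 for Igkv1-117, -0.40 for Igkv12-46 and -0.20 for Igkv12-44. Leaving out single mice gave -0.084 to 1.67 for Igkv12-46, -0.10 to 1.48 for Igkv10-94 (lowest without AAV-Notum S_2031), and, with the highest values without AAV-GFP S_2022, -1.76 to 0.71 for Igkv1-88 and -0.81 to 0.53 for Igkv4-68.

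The count of members called was 0 in each edgeR fit, and 1 by DESeq2 (Ighe, higher). The difference in Ighe share was 0.0867 to 0.151 percentage points when single mice were left out, with adjusted p of 0.0281 to 0.506. It passed the threshold without any 1 of the AAV-Notum mice and missed it without any 1 of the AAV-GFP mice. Without AAV-GFP S_2011 and S_2014 it was 0.124 (adjusted p = 0.939). With all mice, the difference in Ighe share among switched classes was 1.20 percentage points (adjusted p = 0.0952). No other measure passed the threshold under any alternative, but several turned sign. Without AAV-GFP S_2011 and S_2014 the differences were -0.67 for the Ighd share and -0.029 for the Igha share. With switched classes alone the Igha difference was -17.1, and with heavy chain reads without Ighm the differences in Ighd share, Igha share and J chain ratio (log2) were -3.93, -3.03 and -1.04. The number of Igkv genes at equal depth differed by 0.072 with the recovered reads and by 0.26 without pseudogenes. Leaving out single mice gave -0.014 to 0.025 for the Igha share, -0.24 to 0.36 for the Ighg3 share (highest without AAV-GFP S_2012), -1.38 to 0.68 for the leading Igkv share, -1.62 to 3.13 for the inverse Simpson number and -0.87 to 0.72 for the Igkv genes at equal depth. The causes were not tested. Depth limits the Ighe share, the switched classes, lambda share and shares without Ighm of AAV-GFP S_2011 and S_2014. It also limits the Igkv use of mice with few Igkv reads.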
